A study of Triticum aestivum with 54 samples.

Results

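Translation is carried out by ribosomes together with initiation and elongation factors, and 3 genes of this machinery were followed here in diploid and tetraploid wheats: eIF4E, TEF1 and RPL9. Members were taken as every probe set whose gene has one of these names as its symbol or synonym in the annotation, which gave 4 probe sets for 3 genes, of the 1273 probe sets and 771 genes that the annotation pairs at all and of the 61115 probe sets on the array. The names stood among the synonyms of LOC543386, LOC543077 and LOC543485, reached through the gene identifier paired with each probe set. eIF4E and RPL9 were each read by 1 probe set. TEF1 was read by a pair whose identifiers are the same but for the transcript number, and these are called TEF1 probe set 2 and TEF1 probe set 3 after that number. Both carry the suffix x_at, which marks probe sets whose probes also match other transcripts, and elongation factor 1-alpha is encoded by a multigene family, so the TEF1 values cannot be assigned to a single gene copy with certainty. They share their gene and are not independent measures of it.

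Protein synthesis begins when eIF4E binds the cap at the 5′ end of an mRNA and so helps to bring in the small ribosomal subunit. Once the first codon is set, elongation factor 1-alpha, the product of TEF1, delivers each loaded tRNA to the ribosome. RPL9 encodes a protein of the large ribosomal subunit. The annotation also lists CL9 as a synonym of this gene and does not say whether the protein belongs to the ribosomes of the cytosol or to those of the plastid. Growing plant tissue needs many ribosomes and factors, and leaf cells run a second protein synthesis machinery in their plastids.

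Expression was measured on the Affymetrix GeneChip Wheat Genome Array in 9 genotypes and 2 tissues with 3 arrays each, 54 arrays in all. The female parent was the diploid Aegilops longissima TL05, which carries the S genome. The male parent was the diploid Triticum urartu TMU06, with the A genome. They are called L and U where single arrays are named. A 1:1 mixture of parental RNA, the in vitro "hybrids", is called Mix. AT2 is 1 synthetic tetraploid line, made from the intergeneric F1 by colchicine doubling and sampled in 4 generations of selfing (S5 to S8), so the generations are not independent polyploids. TD (wild, ssp. dicoccoides) and TTR13 (domesticated, ssp. durum) are natural tetraploid wheats with A and B genomes. The study describes Ae. longissima only as presumably related to the B-genome donor. Mix is therefore the parental control of AT2 and not of TD or TTR13. Leaf samples were taken from the second leaf at an age of 3 weeks and young inflorescences at booting, from plants in growth chambers with no treatment. RNA of several plants was pooled for an array. Nothing says that the 3 Mix preparations had pools of their own, so p-values measure the spread between preparations.

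All values are on the log2 scale, as normalized by RMA before deposit, and a difference of 1 on this scale is a 2-fold difference. Array medians lay between 4.69 and 4.92, each of the 54 arrays correlated best with an array of its own genotype and tissue, and none was left out. Genes of photosynthesis (PRK, PsbO, PsbP and petC) checked the tissue labels: 5 of their 6 probe sets were higher in every leaf array than in any array of young inflorescence. Of the 22 probe sets of dividing and floral tissue, 9 were higher in all arrays of young inflorescence and 13 overlapped between the tissues, with the floral gene raftin low in both. All 4 member probe sets passed the filter on low values in both tissues, 24053 probe sets being analysed in leaf and 23348 in young inflorescence, and in no array did a member lie under the array's median.

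The 3 genes were higher in AT2 than in the parental mixture in leaf, and in young inflorescence RPL9 and eIF4E were called higher in part of the generations. Against Mix, S5 leaf was called higher for 4 of 4 member probe sets, where 17.0% of all analysed probe sets were called higher. S6 leaf was called higher for 2 of 4 (14.2% of all) and S8 leaf for 3 of 4 (19.7% of all). S7 leaf was called for 0 of 4 with limma and Benjamini-Yekutieli adjustment (6.02% of all called higher), though 3 of 4 had an unadjusted p under 0.05 and 1 of 4 was called with Benjamini-Hochberg adjustment. In young inflorescence S5 was called higher for 2 of 4 (16.1% of all) and S7 for 1 of 4 (8.29% of all). S6 and S8 were called for 0 of 4 there (13.0% and 12.0% of all called higher), each with 1 of 4 at an unadjusted p under 0.05 and 0 of 4 with Benjamini-Hochberg adjustment. All 8 comparisons use the Mix arrays of their tissue, so they are not independent of each other. Called means a Benjamini-Yekutieli adjusted p under 0.05 in limma, over all probe sets analysed.

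**Figure D1:**
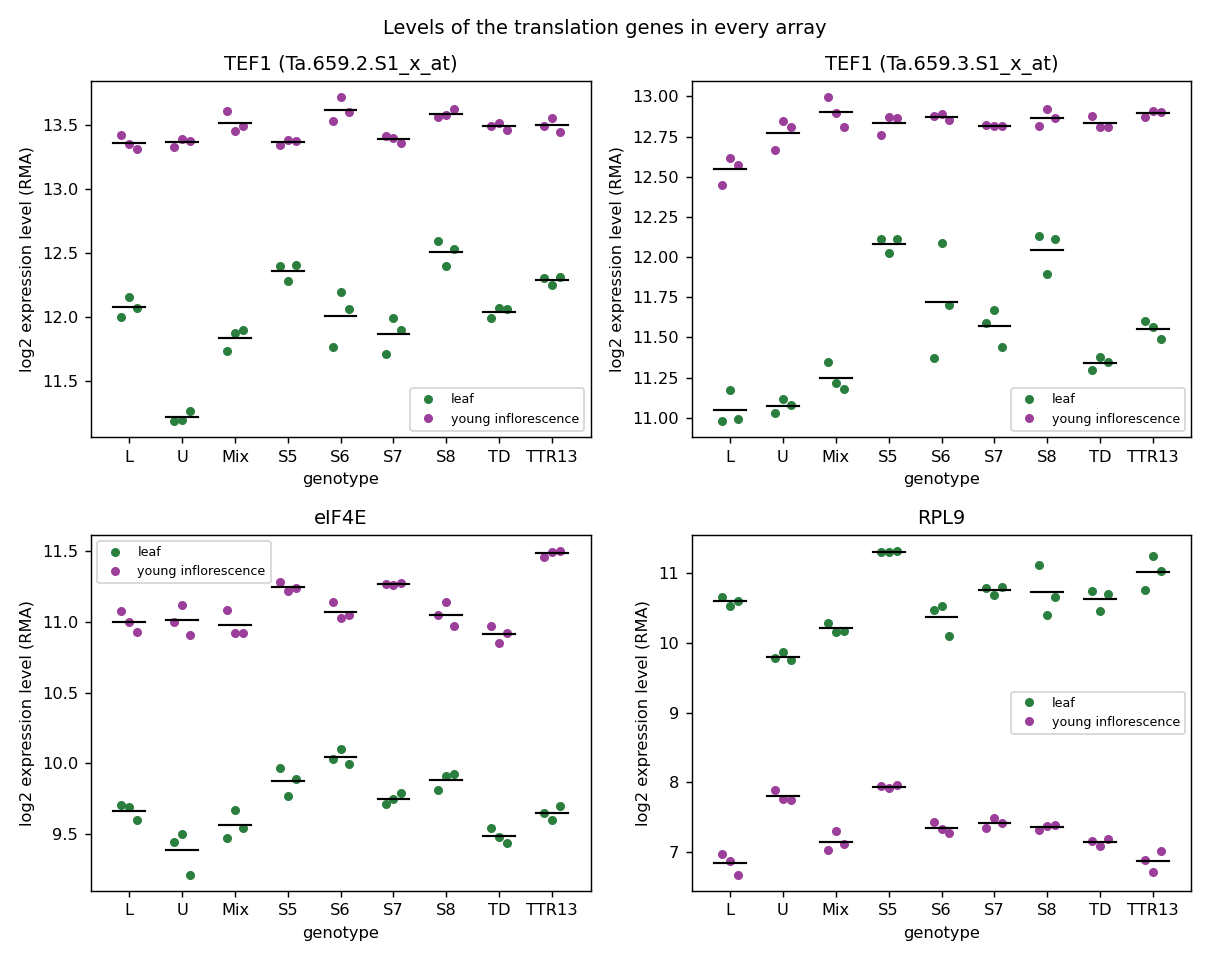
Levels of the 4 member probe sets in every array, on the log2 RMA scale (vertical axis, a separate range in each panel), for each of the 9 genotypes (horizontal axis, L for Ae. longissima and U for T. urartu). Points are single arrays, green for leaf and purple for young inflorescence, and black lines are means of 3 arrays. RPL9 was higher in all leaf arrays, and eIF4E and both TEF1 probe sets in all arrays of young inflorescence of the same genotype.

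RPL9 transcripts were lower in young inflorescence than in leaf in all 9 genotypes, and eIF4E and TEF1 transcripts were higher. Over the mean of 9 genotypes RPL9 was 9.75-fold lower in young inflorescence (log2 difference -3.29, standard error 0.04, adjusted p = 9.68e-45). eIF4E was 2.66-fold higher (log2 difference 1.41, standard error 0.02), and TEF1 was 2.71-fold higher by probe set 2 and 2.45-fold higher by probe set 3. A difference between tissues was called for 90.0% of the 27583 probe sets analysed in either tissue, so a call alone says little about these genes. Fewer cells that express a gene and less of its RNA per cell cannot be told apart in such bulk samples.

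eIF4E, the cap-binding factor, was lower in T. urartu than in Ae. longissima in leaf without a call, and was called above Mix in S5, S6 and S8 leaf. In leaf its log2 levels were 9.70, 9.69 and 9.60 in Ae. longissima and 9.45, 9.50 and 9.21 in T. urartu. The Mix arrays read 9.47, 9.67 and 9.54. All 3 T. urartu arrays were below all Ae. longissima arrays, a gap whose share over all probe sets was not computed. The difference was not called (T. urartu minus Ae. longissima -0.28, standard error 0.08, adjusted p = 0.0642). Without T. urartu replicate 2 it was -0.33 and was called (adjusted p = 0.035). It was also called in 4 of 11 alternatives, among them centring on the analysed probe sets (-0.34, adjusted p = 0.00887) and quantile normalization (-0.37, adjusted p = 0.00264).

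The AT2 leaves came out higher. S5 read 9.97, 9.77 and 9.89, and S6 read 10.03, 10.10 and 10.00. S7 read 9.71, 9.75 and 9.79, and S8 read 9.81, 9.91 and 9.92. Every AT2 leaf array was above all 3 Mix arrays. A generation whose 3 arrays all lie above the 3 Mix arrays was seen for 36.2% of all analysed probe sets in S5, 30.6% in S6, 25.3% in S7 and 33.5% in S8. The rise over Mix was called in S6 (0.48, adjusted p = 0.00115), S5 (0.31, adjusted p = 0.043) and S8 (0.32, adjusted p = 0.0304), each with a standard error of 0.08. In S7 the difference was 0.19, with a 95% confidence interval from 0.02 to 0.36, and was not called (adjusted p = 1).

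The calls of S5 and S8 depended on single arrays and on the processing. Over 13 alternatives the S5 call was lost in 7 and the S8 call in 5. With quantile normalization the differences were 0.14 in S5 (adjusted p = 1) and 0.19 in S8 (adjusted p = 0.481), and after centring on the analysed probe sets 0.21 (adjusted p = 0.424) and 0.19 (adjusted p = 0.508). The S6 call was lost in 1, the fit of only the groups compared (0.48, adjusted p = 0.139). The S8 call was lost without S8 replicate 2 or 3 or Mix replicate 1 or 3 (0.28 to 0.31, adjusted p from 0.129 to 0.191). The S5 call was lost in 15 of 27 fits that left out 1 array, with adjusted p of 0.281 without S5 replicate 1, 0.166 without S5 replicate 3, 0.251 without Mix replicate 1 and 0.176 without Mix replicate 3. Without L replicate 1, any 1 array of S7 or TD, S8 replicate 2 or 3, or TTR13 replicate 1 or 3, the S5 difference stayed 0.31 and the adjusted p lay between 0.0512 and 0.0576.

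S6 was the generation with the highest eIF4E level in leaf, and its 3 arrays lay above the arrays of every other genotype. The share of all probe sets with such a gap was not computed. It was called above both parents, by 0.65 over T. urartu (adjusted p = 8.32e-06) and 0.38 over Ae. longissima (adjusted p = 0.0047). Such a position above both parents was called for 5.83% of all probe sets in S6 leaf. S5, S7 and S8 were called above T. urartu (0.49, 0.36 and 0.49, where 23.6%, 16.5% and 25.4% of all were called higher) but not above Ae. longissima (0.21, 0.09 and 0.22, adjusted p of 0.316, 1 and 0.259).

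In young inflorescence the means of the parents, Mix and AT2 for the same gene lay between 10.98 (Mix) and 11.27 (S7). The parents read 11.08, 11.00 and 10.93 in Ae. longissima and 11.00, 11.12 and 10.91 in T. urartu, and differed by 0.01 (95% confidence interval -0.14 to 0.15). Mix read 11.08, 10.92 and 10.92. S5 read 11.28, 11.22 and 11.24 and S7 read 11.27, 11.26 and 11.27, all above the Mix arrays, as for 36.9% of all probe sets in S5 and 29.3% in S7. S6 (11.14, 11.03 and 11.05) and S8 (11.05, 11.14 and 10.97) overlapped Mix. The differences from Mix were called in S5 (0.27, adjusted p = 0.0364) and S7 (0.29, adjusted p = 0.0281) and not in S6 (0.10) or S8 (0.08). S7 was also called above both parents (0.26 and 0.27), as 1.97% of all probe sets were. Both calls against Mix depended on single arrays: the S5 call was lost without any 1 array of S5, S7 replicate 3, or Mix replicate 2 or 3 (0.24 to 0.28, adjusted p from 0.0509 to 0.199), and the S7 call without any 1 array of S7 or Mix replicate 2 or 3 (0.27 to 0.29, adjusted p from 0.094 to 0.162). Each call was also lost in 4 of 13 alternatives, and the S5 difference was 0.17 after centring on the analysed probe sets (adjusted p = 0.393).

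Durum wheat had the highest eIF4E level in young inflorescence. TTR13 read 11.46, 11.49 and 11.50 and TD read 10.97, 10.85 and 10.92, with no array of any other genotype reaching those of TTR13. How many of all probe sets had such a gap was not computed. TTR13 was 1.49-fold above TD (log2 difference 0.57, standard error 0.07, adjusted p = 3.61e-06) and 1.42-fold above Mix (0.51, adjusted p = 1.29e-05). In leaf the order was different. TTR13 (9.65, 9.60 and 9.70) and TD (9.54, 9.48 and 9.44) did not overlap, a gap whose share over all probe sets was not computed. The difference of 0.16 between them was not called (adjusted p = 1). AT2 was above the mean of both natural tetraploids (0.32, adjusted p = 9.4e-05), where 37.8% of all probe sets were called higher. After centring on the analysed probe sets this AT2 difference was 0.14 and was not called. In young inflorescence AT2 minus the natural tetraploids was -0.04 (95% confidence interval -0.13 to 0.05).

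TEF1, the elongation factor gene, stood above both parents in leaf in every AT2 generation by TEF1 probe set 3, and was called above Mix in S5, S6 and S8. The leaf levels by this probe set were 10.98, 11.17 and 10.99 in Ae. longissima, 11.03, 11.12 and 11.08 in T. urartu and 11.35, 11.21 and 11.18 in Mix. The parents overlapped and differed by 0.03 (95% confidence interval -0.22 to 0.28). S5 read 12.11, 12.02 and 12.11, and S8 read 12.13, 11.90 and 12.11. S6 read 11.37, 12.09 and 11.70, a wide spread with a standard deviation of 0.36, and S7 read 11.59, 11.67 and 11.44. All 12 AT2 arrays lay above every array of the parents and of Mix. The Mix arrays themselves lay above every parental array, though Mix minus the mean of the parents was called in leaf for 0 of 4 members. The share of all probe sets with Mix above every parental array was not computed. Over its generations AT2 was 0.79 above the parents' mean log2 level and 0.61 above Mix. Arrays all above Mix were seen for 36.2% of all probe sets in S5, 30.6% in S6, 25.3% in S7 and 33.5% in S8. The share that lay above the parents as well was not computed.

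By the same probe set each of the 4 generations was called above both parents in leaf. The differences from Ae. longissima were 1.03 in S5, 0.68 in S6, 0.52 in S7 and 1.00 in S8, and those from T. urartu 1.01, 0.65, 0.49 and 0.97, with a standard error of 0.12 and adjusted p up to 0.0195. Calls above both parents were made for 6.96% of all probe sets in S5, 2.73% in S7 and 9.64% in S8. Against Mix the difference was 0.84 in S5 (adjusted p = 0.000137), 0.48 in S6 (adjusted p = 0.0377), 0.32 in S7 (adjusted p = 0.587) and 0.80 in S8 (adjusted p = 0.000144). The S6 call fell away without S6 replicate 2 (0.29, adjusted p = 0.362), S6 replicate 3, any 1 Mix array, S5 replicate 3 or TD replicate 3, with adjusted p between 0.0503 and 0.362. It was also lost in 5 of 13 alternatives, with 0.37 after centring on the analysed probe sets (adjusted p = 0.154). The S7 difference was called with array weights (0.26, adjusted p = 0.0105) and against the parents' mean log2 level (0.51, adjusted p = 0.00498).

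TEF1 probe set 2 gave another picture of the parents. In leaf it read 12.00, 12.16 and 12.07 in Ae. longissima and 11.19, 11.20 and 11.27 in T. urartu, 1.81-fold lower (log2 difference -0.86, standard error 0.10, adjusted p = 6.57e-07). Mix lay between them at 11.73, 11.88 and 11.90. S5 (12.39, 12.28 and 12.41) and S8 (12.60, 12.39 and 12.53) were above all arrays of Mix and of both parents. Arrays all above Mix were seen for 36.2% of all probe sets in S5 and 33.5% in S8. S6 (11.77, 12.20 and 12.06) overlapped both Mix and Ae. longissima, and S7 (11.71, 11.99 and 11.90) overlapped Mix and lay just below all arrays of Ae. longissima. The rise over Mix was called in S5 (0.52, adjusted p = 0.002) and S8 (0.67, adjusted p = 8.77e-05), and S8 was called above both parents (1.29 and 0.43). In S6 and S7 the differences from Mix were 0.17 (95% confidence interval -0.03 to 0.37) and 0.03 (-0.17 to 0.23).

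In young inflorescence, where TEF1 was higher, the AT2 generations did not stand above Mix by either probe set. By TEF1 probe set 3 Mix read 12.99, 12.90 and 12.81, and the 12 AT2 arrays ranged from 12.76 to 12.92. The mean of S5 to S8 differed from Mix by -0.05 (95% confidence interval -0.16 to 0.06, adjusted p = 1). The mixture itself was above the mean of its parents by 0.24 (adjusted p = 0.0307, 11.2% of all called higher), and against the parents' computed mean the AT2 difference was 0.19 and was called (adjusted p = 0.00392). Direction and call therefore rested on which control was used. By TEF1 probe set 2 Mix read 13.61, 13.45 and 13.49, and all arrays of S5 (13.34, 13.38 and 13.38) and S7 (13.41, 13.40 and 13.35) lay below it. Those differences were -0.15 and -0.13 and were not called (adjusted p of 0.641 and 1). The share of all probe sets with arrays all below Mix was not computed. After centring on the analysed probe sets the S5 difference was -0.25 and was called lower (adjusted p = 0.0477). Against the parents' mean log2 level in place of Mix, S6 (0.25, adjusted p = 0.00528) and S8 (0.22, adjusted p = 0.0168) were called higher by this probe set, where they were at 0.10 and 0.07 from Mix.

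The TEF1 difference between AT2 and Mix thus depended on the tissue, and this was tested directly over all 54 arrays. Young inflorescence minus leaf of the AT2 minus Mix difference was -0.66 by TEF1 probe set 3 (standard error 0.11, adjusted p = 6.56e-05) and -0.38 by TEF1 probe set 2 (standard error 0.09, adjusted p = 0.0101). Without Mix replicate 1 of leaf or of young inflorescence the latter was -0.33 and was not called (adjusted p of 0.0861 and 0.094), nor was it in a fit of only the groups compared (-0.38, adjusted p = 0.0776). For eIF4E it was -0.14 and for RPL9 -0.22, neither called (adjusted p = 1 for each). Of all probe sets 11.0% were called lower in this test.

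**Figure D2:**
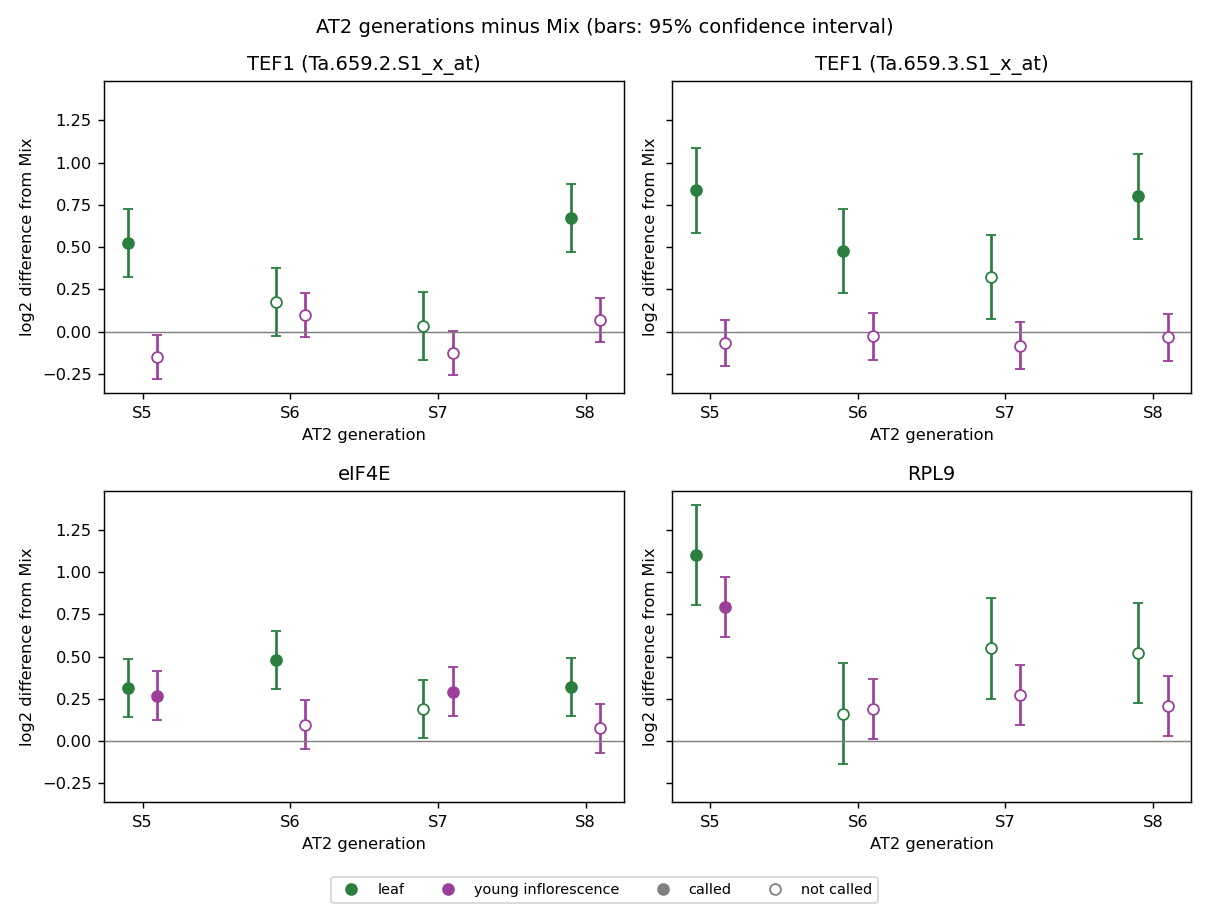
Difference of each AT2 generation from Mix (vertical axis, log2 scale, 1 range for all panels) for the 4 member probe sets, in leaf (green) and young inflorescence (purple). Points are estimates from limma over 27 arrays of a tissue, bars are 95% confidence intervals, and filled points were called. All leaf points lie above 0, from 0.03 to 1.10, and TEF1 in young inflorescence lies between -0.15 and 0.10.

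RPL9, the gene of the large ribosomal subunit, had its highest level in S5 in both tissues. In leaf S5 read 11.30, 11.31 and 11.32, above every array of the other 8 genotypes. RPL9 in S5 leaf was called above both parents, as 6.96% of all probe sets were. Arrays all above Mix were seen for 36.2% of all probe sets in S5 leaf, and the share above every other genotype was not computed. Mix read 10.28, 10.16 and 10.17, and S5 was 2.15-fold higher (log2 difference 1.10, standard error 0.14, adjusted p = 4.15e-05). In young inflorescence S5 read 7.94, 7.91 and 7.96 against 7.03, 7.30 and 7.12 in Mix, a 1.73-fold difference (0.79, standard error 0.09, adjusted p = 1.29e-06).

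The later generations were lower than S5. In leaf S6 read 10.47, 10.53 and 10.10, S7 read 10.78, 10.68 and 10.80, and S8 read 11.12, 10.40 and 10.66, the last with a standard deviation of 0.36. S6 was 1.92-fold below S5 (log2 difference -0.94, adjusted p = 0.000348), where 7.98% of all probe sets were called lower. S8 minus S5 was -0.58 (adjusted p = 0.048, 6.66% of all called lower), a call that was lost in 21 of 27 fits that left out 1 array, with values from -0.42 without S8 replicate 2 (adjusted p = 0.478) to -0.58, and in 6 of 11 alternatives, with adjusted p from 0.0527 to 0.547. In young inflorescence the 3 later generations lay close together, at 7.42, 7.32 and 7.27 in S6, 7.35, 7.49 and 7.42 in S7, and 7.31, 7.37 and 7.39 in S8. S6 was 1.52-fold below S5 there (-0.60, adjusted p = 0.000265, 3.06% of all called lower) and S8 1.50-fold below it (-0.58, adjusted p = 0.000393, 3.63% of all called lower).

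Against Mix, S6, S7 and S8 were not called for RPL9 in either tissue. In leaf the differences were 0.16 in S6, 0.55 in S7 (adjusted p = 0.074) and 0.52 in S8 (adjusted p = 0.0507). All arrays of S7 and S8 were above those of Mix, as for 25.3% and 33.5% of all probe sets. S8 was called without S8 replicate 2 (0.68, adjusted p = 0.00764) and, at 0.52, without S6 replicate 2 or 3, TD replicate 2, or TTR13 replicate 1 or 2 (adjusted p from 0.0324 to 0.05). S7, at 0.55, was called without S6 replicate 3 or S8 replicate 1 or 2 (adjusted p from 0.0174 to 0.0473). Over 13 alternatives S8 was called in 5 and S7 in 4, with array weights at 0.39 (adjusted p = 0.0219) and 0.61 (adjusted p = 5.91e-06). In young inflorescence the differences were 0.19, 0.27 and 0.21, with adjusted p from 0.196 to 0.872. For the mean of the 4 generations the difference in young inflorescence was 0.37 (adjusted p = 0.00132), and it was 0.12 and not called against the log2 of the parents' mean linear level (adjusted p = 1).

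The parents carried RPL9 in opposite order in the 2 tissues. In leaf Ae. longissima read 10.66, 10.52 and 10.60 and T. urartu 9.78, 9.87 and 9.75, so T. urartu was 1.73-fold lower (log2 difference -0.79, standard error 0.14, adjusted p = 5.17e-04). In young inflorescence Ae. longissima read 6.97, 6.87 and 6.67 and T. urartu 7.89, 7.76 and 7.75, so T. urartu was 1.95-fold higher (0.96, standard error 0.09, adjusted p = 5.98e-09). The groups did not overlap in either tissue, and the share of all probe sets with such a gap was not computed. Tested over both tissues, the parental difference changed by 1.76 (standard error 0.17, adjusted p = 9.19e-11), which is called the interaction of tissue and parent. For TEF1 by probe set 2 this interaction was 0.86 (standard error 0.11, adjusted p = 1.94e-07), the parents reading 13.42, 13.35 and 13.31 in Ae. longissima and 13.33, 13.39 and 13.37 in T. urartu in young inflorescence. For eIF4E it was 0.28 (adjusted p = 0.226) and by TEF1 probe set 3 it was 0.20 (adjusted p = 1). It was called higher for 21.3% of all probe sets. Equal binding of the probes to the transcripts of either species was not tested.

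Counted over the members, the parents differed for 2 of 4 probe sets in each tissue, where 48.8% of all probe sets were called in either direction in leaf and 52.5% in young inflorescence. In leaf RPL9 and TEF1 by probe set 2 were lower in T. urartu (24.9% of all called lower), and in young inflorescence RPL9 and TEF1 by probe set 3 were higher (32.0% of all called higher). The latter difference of 0.23 (12.45, 12.62 and 12.57 in Ae. longissima, 12.67, 12.85 and 12.81 in T. urartu, adjusted p = 0.046) was lost in 22 of 27 fits that left out 1 array, down to 0.18 without L replicate 1 (adjusted p = 0.346), and in 8 of 11 alternatives, with 0.10 after centring on the analysed probe sets (adjusted p = 1).

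**Figure D3:**
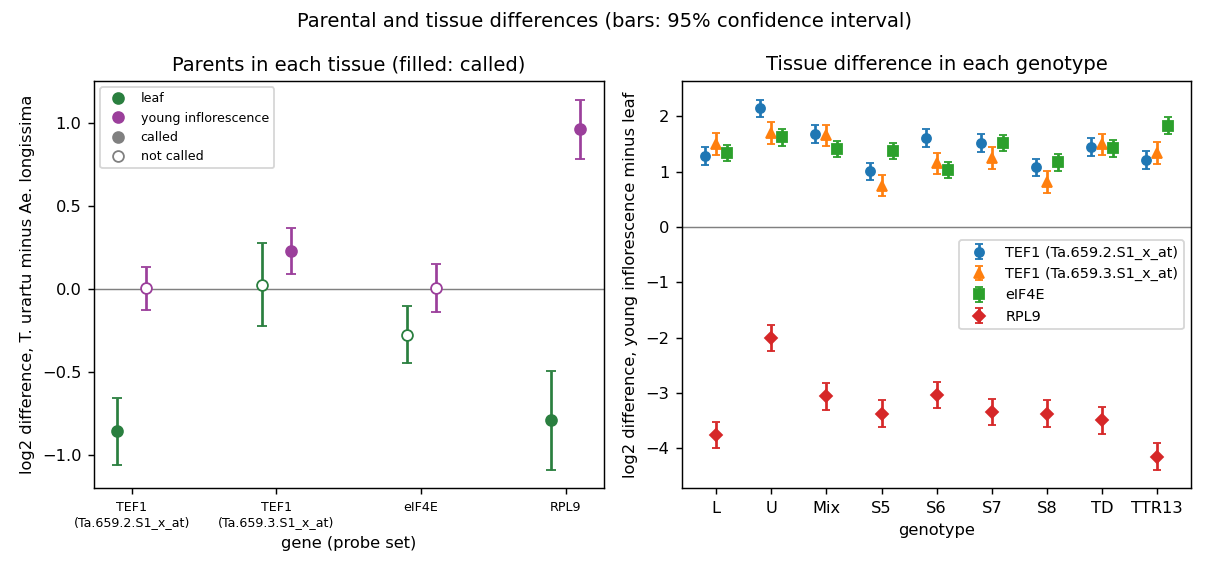
Left, T. urartu minus Ae. longissima (log2 scale) for each member probe set in leaf (green) and young inflorescence (purple), with filled points called. Right, young inflorescence minus leaf (log2 scale) in each of the 9 genotypes, with 1 symbol for each probe set. Bars are 95% confidence intervals from limma. RPL9 crosses 0 between the tissues on the left, from -0.79 to 0.96, and on the right it is the only member below 0, from -4.15 in TTR13 to -2.00 in T. urartu.

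The size of the tissue difference varied between genotypes. For RPL9 it was smallest in T. urartu (-2.00) and largest in TTR13 (-4.15), with Ae. longissima at -3.76, Mix at -3.06 and AT2 between -3.37 and -3.03. For TEF1 by probe set 3 it was 1.50 in Ae. longissima, 1.70 in T. urartu and 1.66 in Mix, and 0.75, 1.15, 1.25 and 0.82 in S5, S6, S7 and S8. For eIF4E it ranged from 1.03 in S6 to 1.83 in TTR13. Each of the 4 probe sets was called in each genotype, where 70.0% of all probe sets were called in Ae. longissima, 66.8% in T. urartu, 74.4% in Mix, 68.2% in S5, 69.2% in S6, 71.3% in S7, 68.0% in S8, 67.4% in TD and 73.7% in TTR13.

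Averaged over its 4 generations, AT2 leaf was called above T. urartu for 4 of 4 member probe sets (25.4% of all called higher), by 0.99 for RPL9, 0.50 for eIF4E, 0.97 for TEF1 probe set 2 and 0.78 for TEF1 probe set 3. Above Ae. longissima it was called for 2 of 4 (27.9% of all), by 0.81 for TEF1 probe set 3 (adjusted p = 1.75e-06) and 0.22 for eIF4E (adjusted p = 0.0474). The eIF4E call was lost in 21 of 27 fits that left out 1 array (0.19 to 0.24, adjusted p from 0.0508 to 0.396, the highest without L replicate 3), and in 8 of 11 alternatives, and its value was 0.03 with quantile normalization, while the median of all analysed probe sets moved from -0.062 to -0.183. RPL9 and TEF1 probe set 2 were at 0.20 (95% confidence interval -0.04 to 0.43) and 0.11 (-0.05 to 0.27) from Ae. longissima. In leaf, AT2 minus Mix over the mean of the generations was called for 4 of 4 (17.4% of all called higher), with a median of 0.47 over the members and 0.033 over all analysed probe sets. Without Mix replicate 1 the calls of eIF4E (0.28, adjusted p = 0.0672) and of TEF1 probe set 2 (0.30, adjusted p = 0.131) were lost.

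In young inflorescence the mean of AT2 was called above Mix for 1 of 4 probe sets, RPL9 (17.7% of all called higher), with a median of 0.078 over the members and 0.047 over all analysed probe sets. It was called below T. urartu for 1 of 4, again RPL9 (-0.29, adjusted p = 0.00985, 23.7% of all called lower), a call lost without U replicate 1 (-0.24, adjusted p = 0.145) and with centring on all probe sets (-0.25, adjusted p = 0.0503). Above Ae. longissima it was called for RPL9 (0.68, adjusted p = 6.37e-08) and TEF1 probe set 3 (0.30, adjusted p = 0.000246), 2 of 4 where 35.5% of all were called higher. After centring on the analysed probe sets the latter was 0.13 and was not called (adjusted p = 0.281). S6 was the only generation called above both parents by TEF1 probe set 2 (0.25 and 0.26), as 5.53% of all probe sets were.

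Of the natural tetraploids, TTR13 had calls over Mix in leaf and TD had none. TTR13 leaf was called above Mix for 2 of 4 (11.9% of all called higher): RPL9, at 10.76, 11.25 and 11.03, by 0.81 (adjusted p = 0.000707), and TEF1 by probe set 2, at 12.30, 12.25 and 12.31, by 0.45 (adjusted p = 0.0054). TD leaf was called for 0 of 4 (13.4% of all called higher), with 2 of 4 at an unadjusted p under 0.05 and 1 of 4 called with Benjamini-Hochberg adjustment. Its arrays read 10.75, 10.45 and 10.71 for RPL9, 0.43 above Mix (adjusted p = 0.179), and 11.30, 11.38 and 11.34 for TEF1 probe set 3, 0.09 above Mix (95% confidence interval -0.16 to 0.34). TTR13 minus TD in leaf was called for 0 of 4 with Benjamini-Yekutieli adjustment (7.72% of all called higher), with 2 of 4 at an unadjusted p under 0.05 and 1 of 4 called with Benjamini-Hochberg adjustment.

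AT2 stood above the mean of TD and TTR13 in leaf for eIF4E and for TEF1 probe set 3 (0.41, adjusted p = 0.000476), 2 of 4 where 37.8% of all were called higher and the median of all was 0.15. After each array was centred on the median of its analysed probe sets, the median of all was -0.029, and these 2 differences were 0.14 and 0.23 and were not called (adjusted p of 0.199 and 0.0868). Without centring, RPL9 and TEF1 probe set 2 were at -0.04 and 0.02, and with it at -0.22 and -0.16, none of them called. In young inflorescence 1 of 4 was called in either direction, RPL9 (0.51, adjusted p = 8.94e-08), where 56.6% of all were, with TD at 7.15, 7.08 and 7.19 and TTR13 at 6.88, 6.72 and 7.01. TTR13 was below Mix by 0.28 for RPL9, which was not called (log2 difference -0.28, adjusted p = 0.0864), and was called without L replicate 3, Mix replicate 1 or TTR13 replicate 3 (-0.35 to -0.28, adjusted p from 0.0362 to 0.0492). It was also called lower in 5 of 13 alternatives, among them quantile normalization (-0.44, adjusted p = 0.00139) and both computed means of the parents (-0.45 and -0.53). In young inflorescence TTR13 was called above Mix, and above TD, for 1 of 4, eIF4E (20.4% and 20.3% of all called higher), and TD minus Mix was called for 0 of 4 (11.0% of all called higher), with 0 of 4 at an unadjusted p under 0.05 and 0 of 4 with Benjamini-Hochberg adjustment.

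The order of the genotypes was read from the means. In leaf RPL9 ran from S5 (11.31) through TTR13 (11.02), S7 (10.76), S8 (10.73), TD (10.63), Ae. longissima (10.59), S6 (10.37) and Mix (10.21) to T. urartu (9.80). Only the steps from S5 to TTR13 and from Mix to T. urartu were between neighbours whose arrays did not overlap. In young inflorescence the order was S5 (7.94), T. urartu (7.80), S7 (7.42), S8 (7.36), S6 (7.34), Mix (7.15), TD (7.14), TTR13 (6.87) and Ae. longissima (6.84), with gaps between S5 and T. urartu, T. urartu and S7, and TD and TTR13. For TEF1 by probe set 2, S8 leaf (12.51) was highest and T. urartu leaf (11.22) lowest, and the S8 level was above that of S7 (0.64, adjusted p = 0.00103, 7.23% of all called higher).

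Other genes of translation were taken from a list of gene symbols (ribosomal proteins, initiation and elongation factors), which held 3 further genes on 4 probe sets. These were the initiation factor subunit eIF-2-beta, whose complex brings the initiator tRNA, Eif4B, a cofactor of the eIF4 group that unwinds mRNA, and the small-subunit protein gene RPS29. The 2 RPS29 probe sets did not pass the filter in either tissue. In leaf eIF-2-beta read 9.09, 9.20 and 9.09 in Mix, 9.54, 9.61 and 9.63 in S5 and 9.59, 9.42 and 9.55 in S8. Neither generation overlapped Mix, and arrays all above Mix were seen for 36.2% of all probe sets in S5 and 33.5% in S8. Both analysed genes were called higher in AT2 leaf over the mean of the generations, eIF-2-beta by 0.30 (adjusted p = 0.0145) and Eif4B by 0.30 (adjusted p = 0.0337), 2 of 2 where 17.4% of all were called higher. By generation 1 of 2 was called higher in S5 (17.0% of all), 1 of 2 in S6 (14.2%), 0 of 2 in S7 (6.02%) and 2 of 2 in S8 (19.7%). The medians of the 2 differences were 0.33, 0.34, 0.11 and 0.43, and a count over 2 probe sets is coarse. In young inflorescence neither was called (0.09 and -0.05, adjusted p = 1 for each), and the interaction of tissue and AT2 was -0.36 for Eif4B (adjusted p = 0.0291) and -0.21 for eIF-2-beta (adjusted p = 0.771).

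NCBP, a cap-binding protein gene related to eIF4E, was added after the values of the listed genes were seen. It rose over Mix in AT2 in both tissues, by 0.49 in leaf (adjusted p = 0.0316, 17.4% of all called higher) and 0.44 in young inflorescence (adjusted p = 0.000349, 17.7% of all called higher). In young inflorescence its arrays read 10.68, 10.71 and 10.78 in Mix, 11.28, 11.10 and 11.16 in S5 and 11.15, 11.35 and 11.09 in S8. Like eIF4E it was higher in young inflorescence than in leaf (1.73).

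The identifiers of both TEF1 probe sets carry the same cluster number, and the array holds 8 probe sets of this cluster. The 6 others are not paired with a gene in the annotation used here and are given by the transcript number in their identifiers. All 8 were higher in young inflorescence than in leaf, by 1.23 to 2.62, where 48.1% of all probe sets were called higher. Between the parents in leaf they ran from -2.98 (transcript 1, the probe set without the suffix x_at) to 6.91 (transcript 5), the latter at a mean of 4.83 in Ae. longissima and 11.74 in T. urartu. Both TEF1 probe sets, at -0.86 and 0.03 between the parents, lie inside this range. In AT2 leaf the differences of the cluster from Mix ran from 0.04 to 1.02, and not all were called. Called higher were transcript 5 (1.02, adjusted p = 2.82e-05), transcript 6 (0.56, adjusted p = 0.00138) and both TEF1 probe sets, where 17.4% of all were called higher. Both probe sets of transcript 1 (0.04 and 0.07) were not called. Nor were the remaining ones, at 0.21 (adjusted p = 0.702) and 0.24 (adjusted p = 0.394). In young inflorescence transcript 6 was called below Mix (-0.34, adjusted p = 3.25e-05, 11.1% of all called lower), and no other probe set of the cluster was called there.

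The genotype means of the members moved together more closely in leaf than in young inflorescence. Over 9 genotype means, Pearson's r between pairs of member probe sets ran from 0.48 to 0.83 in leaf and from -0.29 to 0.62 in young inflorescence, given as a description only, since the means share arrays and normalization. Over 18 means of genotype and tissue, each centred on its tissue, the genes most like the members were looked for among 79 named probe sets. Among all 19817 probe sets compared, the most alike had no gene name and a higher r for every member. This r was 0.89 for eIF4E, 0.93 for each TEF1 probe set and 0.92 for RPL9, so the named genes below are not the closest of all. For eIF4E these were H2A-9 (r = 0.80), eIF-2-beta (0.73) and NCBP (0.67), and for TEF1 by probe set 3 eIF-2-beta (0.78), TUBA (0.78) and NCBP (0.73). For TEF1 probe set 2 the most alike were the other TEF1 probe set (0.71), TCTP (0.69) and TUBA (0.68), and for RPL9 AGA.1 (0.71), AdSS (0.60) and TEF1 by probe set 2 (0.57).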

How the data were processed

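Total RNA of leaf and young inflorescence was hybridised to the Affymetrix GeneChip Wheat Genome Array, 1 array for each of 54 RNA samples. The deposited log2 values are the authors' RMA values, in which background correction and quantile normalization precede a summary over probes. MAS5 and limma are also named in the labels. Genotypes were read from the titles, as the genotype field gives AT2 for all arrays. All 54 columns matched a sample (0 did not).

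Values were used as deposited. For each tissue, limma (version 3.58.1, R 4.3.3) was run over 27 arrays with a mean per genotype, by lmFit and eBayes. A call needed p under 0.05 after Benjamini-Yekutieli adjustment, which the study's methods also use. The methods' filter by MAS5 present calls was not used here, and a probe set was analysed if every array of 1 or more of 7 groups (parents, Mix, S5 to S8; 3 arrays each) lay above its 65th percentile. Tissue differences and interactions came from 1 fit over 54 arrays and 27583 probe sets. The number of arrays limits the precision. The fit was tested on simulated data.

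Gene names came from the platform annotation, updated through gene identifiers in a RefSeq gene table of the bread wheat assembly IWGSC CS RefSeq v2.1 (1272 of 1273 probe sets matched, 200 with a named gene, no coordinates used). Named were all members and the list of translation symbols. A list by gene descriptions could not be built, because the tables hold no descriptions. The members and lists were chosen with earlier results of these data known. Replicate numbers were not used as a block. Alternatives were Benjamini-Hochberg adjustment, other filters, a fit of only the groups compared, median centring, quantile normalization, a replicate block, array weights, computed mid-parent values, and leaving out each array. Values were handled with data.table (version 1.17.8) and pandas 2.3.3, and figures drawn in Python 3.11.15 with matplotlib 3.10.9.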

Additional observations from a re-analysis of the deposited data

Results flagged for a closer look

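For 2 genes a contrast differed between the tissues by the test of the difference itself, in limma over all 54 arrays. T. urartu minus Ae. longissima was larger in young inflorescence than in leaf by 1.76 for RPL9 (adjusted p = 9.19e-11) and by 0.86 for TEF1 by probe set 2 (adjusted p = 1.94e-07). The mean of S5 to S8 minus Mix was smaller in young inflorescence, with differences of -0.38 for TEF1 probe set 2 (adjusted p = 0.0101) and -0.66 for TEF1 probe set 3 (adjusted p = 6.56e-05). No group held enough arrays for a test of outlying samples.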

How the results depend on the processing

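Values below are log2 differences or counts of member probe sets called of 4. AT2 stands for the mean of S5 to S8, and the natural tetraploids are TD and TTR13. Of the 4 leaf calls of AT2 over Mix, RPL9 and TEF1 probe set 3 held in all alternatives named here. TEF1 probe set 2 lost its call with centring on the analysed probe sets (0.26, adjusted p = 0.0653) and with a fit of only the groups compared (0.35, adjusted p = 0.0804), and eIF4E with quantile normalization (0.21, adjusted p = 0.0785). Whether replicate numbers pair the arrays was only described, by correlating their deviations from the group means. The median over same-numbered pairs was 0.012 in leaf and -0.0019 in young inflorescence, against -0.0050 and -0.00071 for other pairs. Of the same-numbered pairs 13 of 108 in leaf and 11 of 108 in young inflorescence correlated over 0.1, a share not computed for other pairs. In leaf 13 of 27 arrays, and in young inflorescence 8 of 27, were nearest to an array of their own number. With the replicate block 4 calls were lost, namely eIF4E in leaf S5 minus Mix (0.31, adjusted p = 0.0596) and in leaf AT2 minus Ae. longissima (0.22, adjusted p = 0.0639), RPL9 in leaf S8 minus S5 (-0.58, adjusted p = 0.0622) and TEF1 probe set 3 between the parents in young inflorescence (0.23, adjusted p = 0.0523). None was gained. Centring moved the median of all probe sets in leaf AT2 minus Ae. longissima from -0.062 to -0.206 (analysed probe sets) or 0.072 (all probe sets). The estimate of array weights stopped before it converged. Leaving out an array leaves fewer arrays in its group; the cause of other changes was not tested.

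Of 347 counts of members called, 73 moved by more than 1.5 times. With Benjamini-Hochberg adjustment 1 was called in leaf for S7 minus Mix, TD minus Mix and TTR13 minus TD, in place of 0. In young inflorescence it called 2 for S7 minus Mix, AT2 minus Mix, TTR13 minus Mix, TTR13 minus TD and S8 minus S5, 3 for AT2 minus T. urartu and 4 for AT2 minus Ae. longissima. Without a filter 1 was called in leaf for S6 minus Mix and AT2 minus Ae. longissima and 0 for S8 minus S5, and in young inflorescence 1 between the parents and for S5 minus Mix and 0 for S7 minus Mix. A filter at the 50th percentile gave the same counts. The filter over all 9 groups and the replicate block each gave 1 for leaf AT2 minus Ae. longissima, 0 for leaf S8 minus S5 and 1 between the parents in young inflorescence. A fit of only the groups compared gave 0 for leaf S6 minus Mix, 1 for leaf S7 minus Mix, AT2 minus Ae. longissima and TTR13 minus Mix, and 0 for leaf S8 minus S5. In young inflorescence it gave 1 between the parents and for S5 minus Mix and 0 for S7 minus Mix, and for the interaction of tissue and AT2 1. The filter at the 75th percentile moved no count by that much. Among the calls gained in young inflorescence, under these and the settings below, were those of RPL9, lower, for TTR13 minus Mix with Benjamini-Hochberg adjustment, centring on the analysed probe sets or quantile normalization and for TTR13 minus TD, and of eIF4E, higher, for AT2 minus Mix with that adjustment, array weights or quantile normalization.

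Centring on the analysed probe sets gave 1 for leaf S6 minus Mix and AT2 minus Ae. longissima, 0 for leaf AT2 minus the natural tetraploids, 1 in young inflorescence between the parents and for AT2 minus Ae. longissima, and 2 there for TTR13 minus Mix and TTR13 minus TD. Centring on all probe sets gave 0 for leaf S8 minus S5, and in young inflorescence 0 for S7 minus Mix and AT2 minus T. urartu and 4 for AT2 minus Ae. longissima. Quantile normalization gave 1 for leaf S6 minus Mix and AT2 minus Ae. longissima, and in young inflorescence 1 between the parents and 2 for AT2 minus Mix, TTR13 minus Mix, TTR13 minus TD and S8 minus S5. Array weights gave in leaf 2 for S7 minus Mix, 1 for AT2 minus Ae. longissima and TD minus Mix and 3 for TTR13 minus TD. In young inflorescence they gave 1 between the parents, 2 for S7 minus Mix, AT2 minus Mix and TTR13 minus TD, and 3 for S8 minus S5. Against the mean of the parents' log2 levels in place of Mix, 2 were called in leaf for S7 and TD, and in young inflorescence 2 for S6, 1 for S8 and 3 for AT2 and TTR13. Against the log2 of the parents' mean linear level 1 was called in young inflorescence for S6 and S8 and 3 for TTR13.

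When each array was left out in turn, the counts in leaf ran from 2 to 3 between the parents, 3 to 4 for S5 minus Mix, 1 to 2 for S6, 0 to 1 for S7, 2 to 4 for S8 and AT2 minus Mix, 1 to 2 for AT2 minus Ae. longissima and 0 to 1 for S8 minus S5. In young inflorescence they ran from 1 to 2 between the parents and for S5 minus Mix, 0 to 1 for S7 minus Mix and AT2 minus T. urartu, and 1 to 2 for TTR13 minus Mix, and from 1 to 2 for the interaction of tissue and AT2. The other counts stayed at their value. Of the single differences, 3305 kept their direction and their side of the threshold, 106 lost a call, 13 gained one and 32 changed sign, of which 0 were called.

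Signs changed in 61 further values over 32 differences, 5 of them called. With centring on the analysed probe sets, TEF1 probe set 3 stood at -0.034 between the parents in leaf, and TEF1 probe set 2 in leaf at -0.034 for AT2 minus Ae. longissima and -0.16 for AT2 minus the natural tetraploids. eIF4E in leaf was at 0.013 for TD minus Mix and -0.014 for S8 minus S5. In young inflorescence the parents differed by -0.12 for eIF4E and -0.13 for TEF1 probe set 2, and AT2 minus Ae. longissima was -0.012 and -0.038 for these. TD minus Mix was there 0.028 for eIF4E, 0.063 for TEF1 probe set 2, 0.022 for TEF1 probe set 3 and 0.086 for RPL9, and TTR13 minus TD was -0.12 and -0.070 for TEF1 probe sets 2 and 3. With quantile normalization the parents differed by -0.0090 for TEF1 probe set 3 in leaf, and in young inflorescence by -0.074 for eIF4E and -0.045 for TEF1 probe set 2. TEF1 probe set 2 in young inflorescence was then at 0.0065 for AT2 minus Mix, 0.021 for TD minus Mix and -0.026 for TTR13 minus TD. TEF1 probe set 3 was there at 0.072 for S6, 0.063 for S8 and 0.020 for AT2 minus Mix, AT2 minus the natural tetraploids was 0.080 for it and 0.014 for eIF4E, and the interaction of tissue and AT2 was 0.028 for eIF4E.

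The other changes of sign under these settings lay in young inflorescence. Centring on all probe sets gave 0.0069 for RPL9 in TD minus Mix, and 0.037 and 0.050 for TEF1 probe sets 2 and 3 in TTR13 minus Mix. Array weights gave for TEF1 probe set 3 0.013 in S6 minus Mix, 0.037 in TTR13 minus Mix and -0.031 in S8 minus S5, for RPL9 0.00040 in TD minus Mix, and for TEF1 probe set 2 0.0077 in AT2 minus the natural tetraploids. Against the mean of the parents' log2 levels, TEF1 probe set 2 was at 0.0066 in S5, 0.027 in S7, 0.13 in AT2, 0.13 in TD and 0.14 in TTR13. TEF1 probe set 3 was at 0.17 in S5, 0.21 in S6 (called, adjusted p = 0.0396), 0.16 in S7, 0.21 in S8, 0.19 in AT2 (called, adjusted p = 0.00392), 0.17 in TD and 0.23 in TTR13 (called, adjusted p = 0.0102). Against the log2 of the parents' mean linear level, TEF1 probe set 2 was at 0.0062 in S5, 0.026 in S7, 0.13 in AT2, 0.13 in TD and 0.14 in TTR13. TEF1 probe set 3 was then at 0.17 in S5, 0.21 in S6, 0.15 in S7, 0.20 in S8, 0.18 in AT2 (called, adjusted p = 0.0342), 0.17 in TD and 0.23 in TTR13 (called, adjusted p = 0.0219), and RPL9 at -0.059 in S6 and -0.041 in S8.

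Leaving out 1 array moved 18 differences across 0. In leaf these were TEF1 probe set 3 between the parents (-0.0074 to 0.088) and in S8 minus S5 (-0.078 to 0.039), TEF1 probe set 2 in S7 minus Mix (-0.030 to 0.11) and AT2 minus the natural tetraploids (-0.0025 to 0.051), RPL9 in AT2 minus the natural tetraploids (-0.098 to 0.023) and eIF4E in S8 minus S5 (-0.046 to 0.054). In young inflorescence eIF4E ran from -0.049 to 0.058 between the parents and RPL9 from -0.065 to 0.069 in TD minus Mix. TEF1 probe set 2 ran from -0.020 to 0.036 between the parents, -0.061 to 0.018 in AT2 minus Mix and in TD minus Mix, -0.053 to 0.027 in TTR13 minus Mix, -0.020 to 0.035 in TTR13 minus TD and -0.018 to 0.0097 in AT2 minus the natural tetraploids. TEF1 probe set 3 ran from -0.074 to 0.018 in S6 minus Mix, -0.080 to 0.012 in S8 minus Mix, -0.052 to 0.040 in TTR13 minus Mix and -0.0032 to 0.060 in S8 minus S5.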
